A study of Mus musculus with 35 samples.

Results

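The loci of 6 genes of the Nodal signalling pathway were followed by ATAC-seq as mouse embryonic stem cells were differentiated to epiblast-like cells. The genes were Nodal, Tdgf1, Lefty1, Lefty2, Smad7 and Pitx3. ATAC-seq measures how readily the Tn5 transposase cuts chromatin, so the values are accessibility of DNA and not expression of a gene. For each gene, every 2-kb tile from 20 kb before the gene to 20 kb after it was taken, which gave 157 tiles of the 1362779 in the genome. Of these 157 tiles, 107 were tested, because they were among the 10% of tiles with the highest mean signal or held an end of a gene. The other 50 tiles carried 0 to 44 reads per library, with a median of 6 reads, and were given no test.

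The study set mouse embryonic stem cells kept in 2i/Lif (D0) beside epiblast-like cells, to which they had been differentiated for 1 day (D1) or 2 days (D2). The groups were TET_KO, which lacks Tet1, Tet2 and Tet3, and its wild-type parent TET_WT, and DNMT_KO, which lacks Dnmt1, Dnmt3a and Dnmt3b, and its wild-type parent DNMT_WT. Each line was measured at D0, D1 and D2 in 3 libraries, except TET_KO at D2, which had 2, so that 35 libraries fell into 12 groups. Each genotype has 1 line label, and the labels do not say how many clones it stands for. A property of the line and an effect of the missing enzymes therefore cannot be told apart. Nothing in the labels says whether the libraries of a group came from separate cultures. The p-values therefore measure only the spread between these libraries, which may be technical.

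Nodal is a secreted ligand of the TGF-beta family that signals through Activin receptors to SMAD2 and SMAD3, and it needs the co-receptor Cripto, encoded by Tdgf1. The pathway restrains itself: Lefty1 and Lefty2 are secreted inhibitors that bind Nodal or its co-receptor and are themselves induced by Nodal, while SMAD7 is an intracellular inhibitor of the receptors. In the mouse epiblast Nodal signalling maintains pluripotency and later patterns the embryo, and Activin is part of the medium commonly used to make epiblast-like cells. Pitx3 is a homeobox gene best known for its roles in the lens and in midbrain dopaminergic neurons.

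The promoters of Nodal, Tdgf1 and Pitx3 are shown because DNMT enzymes methylate and TET enzymes oxidise cytosines in the dinucleotide CpG, and these promoters differ in how many they hold. Each runs 5′ to 3′ from 250 bases before the gene start to 50 bases after it, with each CpG in capitals, and is from RefSeq on build GRCm38.p6. Nodal lies on the plus strand (chr10:61417722-61418021), Tdgf1 on the minus strand (chr9:110946109-110946408) and Pitx3 on the minus strand (chr19:46148276-46148575). The promoters of Lefty1, Lefty2 and Smad7 are not shown.
Nodal: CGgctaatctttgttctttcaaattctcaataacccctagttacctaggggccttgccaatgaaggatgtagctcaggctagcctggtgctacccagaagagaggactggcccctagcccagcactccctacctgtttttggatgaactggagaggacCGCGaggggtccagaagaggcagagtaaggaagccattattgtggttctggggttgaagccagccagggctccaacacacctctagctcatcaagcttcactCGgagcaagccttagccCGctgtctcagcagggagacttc
Tdgf1: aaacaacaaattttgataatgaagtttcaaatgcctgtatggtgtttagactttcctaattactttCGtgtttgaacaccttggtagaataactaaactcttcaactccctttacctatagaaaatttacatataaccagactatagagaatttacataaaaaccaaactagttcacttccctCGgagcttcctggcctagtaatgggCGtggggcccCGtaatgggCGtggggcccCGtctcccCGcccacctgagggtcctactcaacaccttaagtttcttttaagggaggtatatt
Pitx3: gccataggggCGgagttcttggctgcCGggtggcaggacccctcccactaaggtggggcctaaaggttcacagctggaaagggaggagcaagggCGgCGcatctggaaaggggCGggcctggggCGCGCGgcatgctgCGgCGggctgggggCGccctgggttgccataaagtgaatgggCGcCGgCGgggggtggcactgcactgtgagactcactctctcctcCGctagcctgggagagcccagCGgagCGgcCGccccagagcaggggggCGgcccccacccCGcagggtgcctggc

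The Nodal promoter held 5 CpG at a GC content of 54%, the Tdgf1 promoter 7 CpG at 41.7% and the Pitx3 promoter 20 CpG at 71.7%, against a median of 7 CpG over 32851 promoters of the same length. Pitx3 was the CpG-rich member, at percentile 75.2 of promoters by number of CpG, with Tdgf1 at 51.4 and Nodal at 43.6. On both strands, AATNCACA, letters bound by FOXH1, the DNA-binding partner of SMAD2, occurred in none of the 3 promoters and in 3.6% of all promoters. The SMAD letters CAGAC occurred 1 time in the Tdgf1 promoter, with its first base 113 bases before the start, and in 49.6% of all promoters. The GC-rich SMAD letters GGCGC occurred 6 times in the Pitx3 promoter, where 2 pairs overlap on the opposite strands, and in 36.9% of all promoters. The octamer ATGCAAAT, bound by POU factors, occurred in none of the 3 promoters and in 1.74% of all promoters.

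Libraries held 4171462 to 23686796 reads on tiles, and the median tested tile held 4 to 35 reads depending on the library, so a single tile is a noisy measurement. Libraries at D1 held 5.61 to 46.75% mitochondrial reads and those at D0 and D2 none, and their values were scaled by another total, so day and processing cannot be told apart in D1 against D0, and likewise family and processing in DNMT_WT against TET_WT. In the TET_KO line, the tile with the lowest depth-scaled ratio in each targeted gene carried few reads. Summed over libraries, it held 0 in TET_KO against 33 in TET_WT in Tet1, 5 against 41 in Tet2 and 14 against 114 in Tet3. Scaled for depth, these ratios to TET_WT were 0, 0.198 and 0.199. No such tile was seen in the DNMT_KO line, where the lowest depth-scaled ratio in a tile of Dnmt1 was 0.597, of Dnmt3a 0.684 and of Dnmt3b 0.671, so 2-kb tiles do not check that genotype. At D2 against D0, limma called 0.347% of all loci in TET_KO, 1.07% in TET_WT, 2.06% in DNMT_KO and 2.05% in DNMT_WT, in either direction. Of 9 genes of the naive state, the loci of 5 fell at D2 against D0 in TET_KO, 3 in TET_WT, 6 in DNMT_KO and 6 in DNMT_WT (limma, adjusted p below 0.05), including Tfcp2l1, Zfp42 and Tdh in all 4 lines. Of 7 formative genes, 0 rose in TET_KO (3 at an unadjusted p under 0.05), 3 in TET_WT, 1 in DNMT_KO and 3 in DNMT_WT. Limma called 0 of 6 primitive endoderm, 7 fibroblast and 5 primitive streak loci in each line, and at an unadjusted p under 0.05 each of these lists had from 0 to 2 loci per line.

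A locus value is the mean normalised log2 RPKM of the tested tiles in a gene's window, and an adjusted p below 0.05 in a limma model over all 48075 such loci is called a change. Over the tested tiles, which were kept for a high mean or a gene start, the 6 loci had mean values over all libraries between the percentiles 79.4 (Smad7) and 97.2 (Pitx3) of loci measured the same way. Over all tiles of a window, tested or not, the mean log2 RPKM as deposited was highest at Lefty2 (0.19), then -0.02 at Lefty1, -0.11 at Smad7, -0.18 at Nodal and -0.32 at Tdgf1, and lowest at Pitx3 (-0.83), so the place of Pitx3 among the 6 depends on the tiles counted. Of the 6, Lefty1 and Lefty2 had a mean above that of D0 at D2 in all 4 lines, as 18.7% of all loci had. Nodal, Tdgf1, Smad7 and Pitx3 were not called in any of 17 contrasts by limma or by limma voom, and 6 of their tests had an unadjusted p under 0.05 by limma: 3 at Tdgf1, 2 at Smad7 and 1 at Pitx3. In bulk libraries, fewer cells of a type and less accessibility per cell cannot be told apart.

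**Figure D1:**
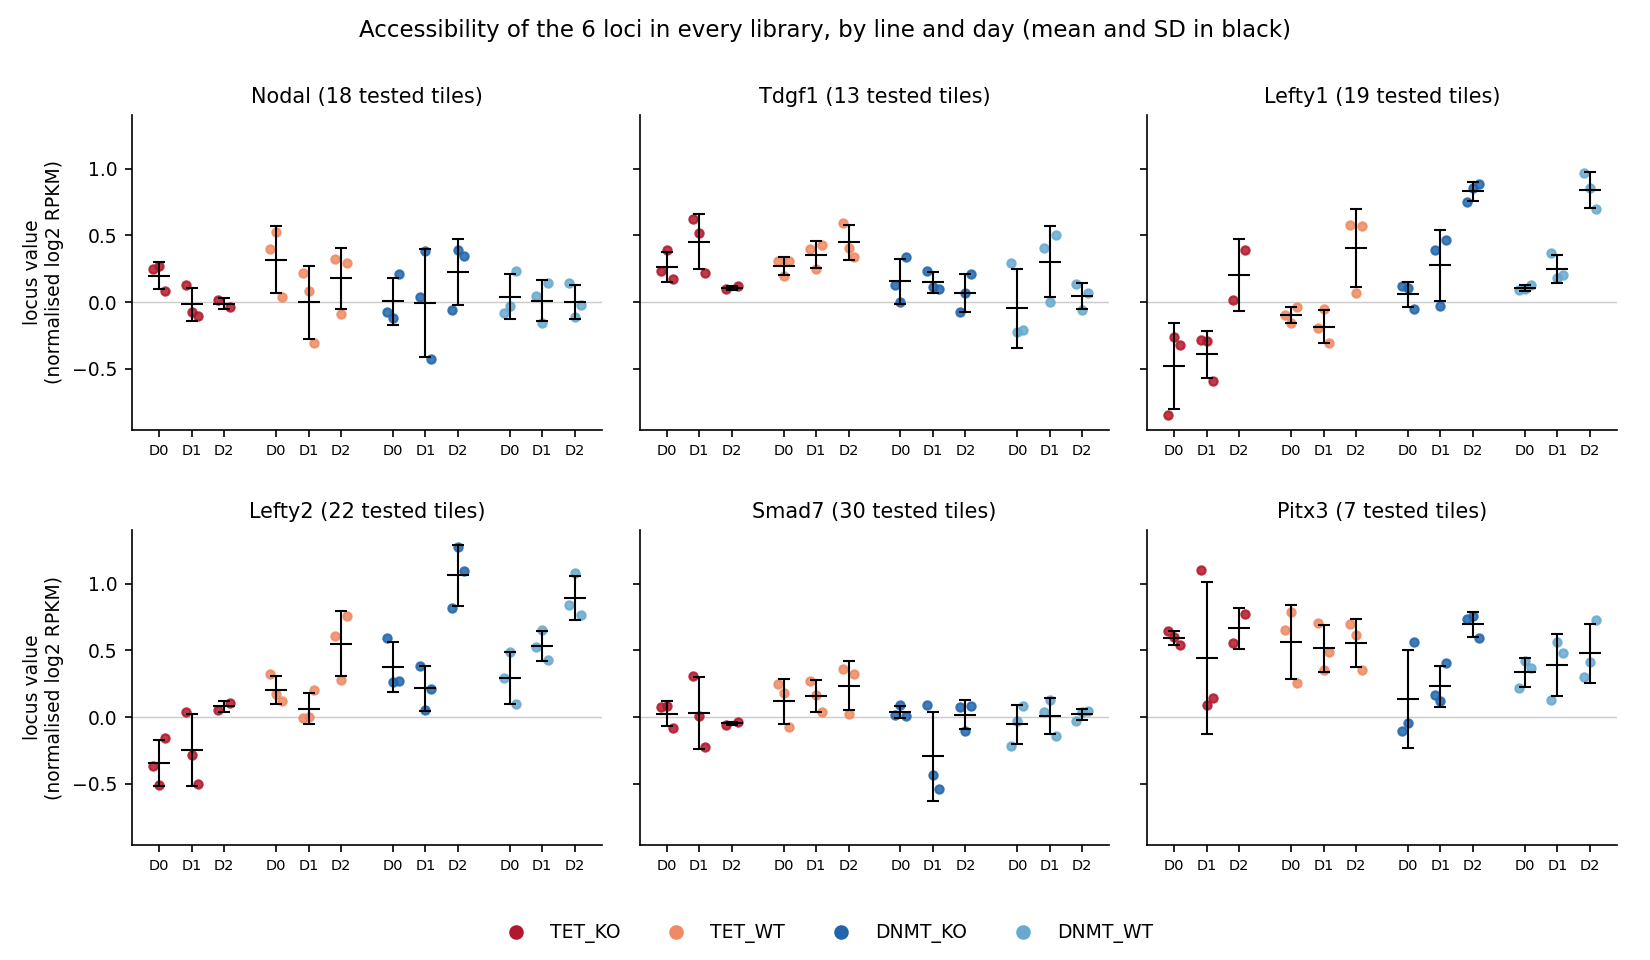
Locus value (mean normalised log2 RPKM of the tested tiles, vertical axis) of each gene in every library, by line and day; points are libraries, black bars the mean and SD. At Lefty1 all 3 D2 libraries of DNMT_KO lie between 0.75 and 0.88 and its D0 libraries between -0.05 and 0.12, while at Smad7 the D2 and D0 libraries overlap in all 4 lines.

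Nodal itself, the ligand (chr10:61417972-61425338), showed no called change. In TET_KO its locus value was 0.02 and -0.04 at D2, against 0.24, 0.27 and 0.08 at D0. In TET_WT it was 0.33, -0.09 and 0.29 at D2, against 0.40, 0.52 and 0.04 at D0. Both TET lines had lower means at D2, with overlapping libraries in TET_WT and both TET_KO libraries below all of D0. In DNMT_KO the value was -0.06, 0.39 and 0.34 at D2, against -0.07, -0.12 and 0.21 at D0, and in DNMT_WT it was 0.14, -0.11 and -0.02 at D2, against -0.08, -0.03 and 0.23 at D0. In both DNMT lines the D2 and D0 libraries overlapped. The differences were -0.21 ± 0.20 (SE) in TET_KO, -0.14 ± 0.17 in TET_WT, 0.22 ± 0.17 in DNMT_KO and -0.04 ± 0.17 in DNMT_WT on the log2 scale, with limma adjusted p from 0.57 to 0.952. These means join tiles that moved both ways. Of 18 tested tiles, 0 were called in each line. At an unadjusted p under 0.05 by limma, 3 were lower in TET_KO, 1 in TET_WT and 4 in DNMT_WT, and 2 were higher in DNMT_KO. The median tile differed by -0.21 in TET_KO, -0.12 in TET_WT, 0.23 in DNMT_KO and 0.31 in DNMT_WT.

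The tile that holds the Nodal start (chr10:61416001-61418000), and with it most of the promoter printed above, was also the most accessible of the window, at percentile 97.7 of tested tiles. In TET_KO it read 0.66 and 0.84 normalised log2 RPKM at D2, against 1.93, 1.84 and 1.84 at D0. Both D2 libraries lay below all D0 libraries, a difference of -1.12 ± 0.31 that just missed the threshold (limma adjusted p = 0.0563). In TET_WT it read 1.63, 1.91 and 1.33 at D2, against 1.69, 2.04 and 1.76 at D0, and the groups overlapped (-0.21, adjusted p = 1). In DNMT_KO it read 1.31, 1.63 and 1.29 at D2, against 1.99, 1.82 and 1.71 at D0, with all D2 libraries lower but a difference of -0.42 that did not pass (adjusted p = 0.571). In DNMT_WT it read 1.02, 1.37 and 0.75 at D2, against 1.19, 1.66 and 2.12 at D0 (-0.61, adjusted p = 0.321), again with overlap. At D2 the tile differed by -0.88 ± 0.31 between TET_KO and TET_WT (limma adjusted p = 0.389).

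Tdgf1, the co-receptor gene (chr9:110939608-110946158, minus strand), had its highest tile at its start (chr9:110946001-110948000, percentile 99.18). Its locus value was 0.10 and 0.12 at D2, against 0.23, 0.39 and 0.17 at D0 in TET_KO, and 0.60, 0.41 and 0.34 at D2, against 0.30, 0.19 and 0.31 at D0 in TET_WT. The TET_KO libraries at D2 were below those at D0 and the TET_WT libraries at D2 above them, yet neither difference passed: -0.16 ± 0.16 in TET_KO and 0.18 ± 0.14 in TET_WT (limma adjusted p = 0.834 and 0.795). In DNMT_KO the value was -0.07, 0.07 and 0.21 at D2, against 0.13, 0.00 and 0.33 at D0, and in DNMT_WT it was 0.13, -0.06 and 0.06 at D2, against 0.29, -0.23 and -0.21 at D0. These groups overlapped in both DNMT lines. At D2 both TET_KO libraries lay below all 3 TET_WT libraries, a difference of -0.34 ± 0.16 with a limma adjusted p of 0.338. The test of the difference between the TET lines in their D2 change gave -0.33 ± 0.21 (adjusted p = 1).

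Lefty1 and Lefty2, the secreted inhibitors, lie next to each other on chromosome 1, at chr1:180935022-180938401 and chr1:180893108-180899107, and their windows share tiles, so the loci are not independent of each other. Together the windows hold 39 distinct tested tiles. Lefty1 rose at D2 in both DNMT lines, and Lefty2 rose in both as well. The TET lines had differences of the same sign that did not pass the test.

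In DNMT_KO the Lefty1 locus value was 0.75, 0.85 and 0.88 at D2, against 0.12, 0.10 and -0.05 at D0. In DNMT_WT it was 0.97, 0.85 and 0.70 at D2, against 0.09, 0.09 and 0.13 at D0. Every D2 library was above every D0 library of its line. The difference was 0.77 ± 0.15 (SE, 95% interval 0.46 to 1.09, 1.71-fold, limma adjusted p = 0.00624) in DNMT_KO and 0.73 ± 0.15 (0.42 to 1.05, 1.66-fold, adjusted p = 0.00808) in DNMT_WT. Over all loci, 2.06% were called in DNMT_KO and 2.05% in DNMT_WT, in either direction. Without DNMT_WT replicate 1 of D2 the adjusted p in DNMT_WT was 0.0556.

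In TET_KO the Lefty1 locus value was 0.01 and 0.39 at D2, against -0.85, -0.26 and -0.32 at D0. In TET_WT it was 0.58, 0.07 and 0.57 at D2, against -0.10, -0.16 and -0.04 at D0. As in the DNMT lines, no D2 library overlapped with D0. The differences were 0.68 ± 0.17 (0.33 to 1.03, adjusted p = 0.077) in TET_KO and 0.50 ± 0.15 (0.19 to 0.82, adjusted p = 0.124) in TET_WT by limma, where 0.347% and 1.07% of all loci were called. Replicate 2 of TET_WT at D2 lay nearest to D0, and without it the TET_WT difference was 0.67 (adjusted p = 0.0431). A weighted test on the recovered reads, limma voom, called both lines, with 0.70 in TET_KO (adjusted p = 0.00113) and 0.57 in TET_WT (adjusted p = 7.7e-05).

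The Lefty2 locus value in DNMT_KO was 0.82, 1.27 and 1.10 at D2, against 0.59, 0.26 and 0.27 at D0. In DNMT_WT it was 0.84, 1.08 and 0.77 at D2, against 0.29, 0.49 and 0.10 at D0. Again the D2 and D0 libraries were separate in both lines. The differences were 0.69 ± 0.15 (1.61-fold, limma adjusted p = 0.0139) in DNMT_KO and 0.60 ± 0.15 (1.52-fold, adjusted p = 0.0316) in DNMT_WT. These calls were fragile: the one in DNMT_WT was lost on leaving out any single library except replicate 2 of D0 (adjusted p up to 0.155). The one in DNMT_KO was lost without replicate 2 or 3 of D0 or of D2 (adjusted p up to 0.0958).

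In TET_KO the Lefty2 value was 0.05 and 0.11 at D2, against -0.37, -0.51 and -0.16 at D0 (0.43 ± 0.17, adjusted p = 0.389), and in TET_WT it was 0.61, 0.28 and 0.76 at D2, against 0.32, 0.17 and 0.12 at D0 (0.35 ± 0.15, adjusted p = 0.41). The TET_KO libraries were separate and those of TET_WT overlapped. The test of the difference between knockout and parental line in this D2 change gave 0.18 ± 0.23 for TET and 0.04 ± 0.22 for DNMT at Lefty1, and 0.08 ± 0.23 and 0.09 ± 0.22 at Lefty2, with limma adjusted p from 0.993 to 1. The 95% interval for Lefty1 ran from -0.29 to 0.65 for TET and from -0.41 to 0.48 for DNMT (limma). Among the 6 loci, limma and limma voom each called 0 of these tests and 0 had an unadjusted p under 0.05. Among the 107 tiles both tools called 0 as well (0.000599% of all tested tiles for TET and 0% for DNMT by limma), with 0 higher and 3 lower for TET and 2 higher and 2 lower for DNMT at an unadjusted p under 0.05.

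**Figure D2:**
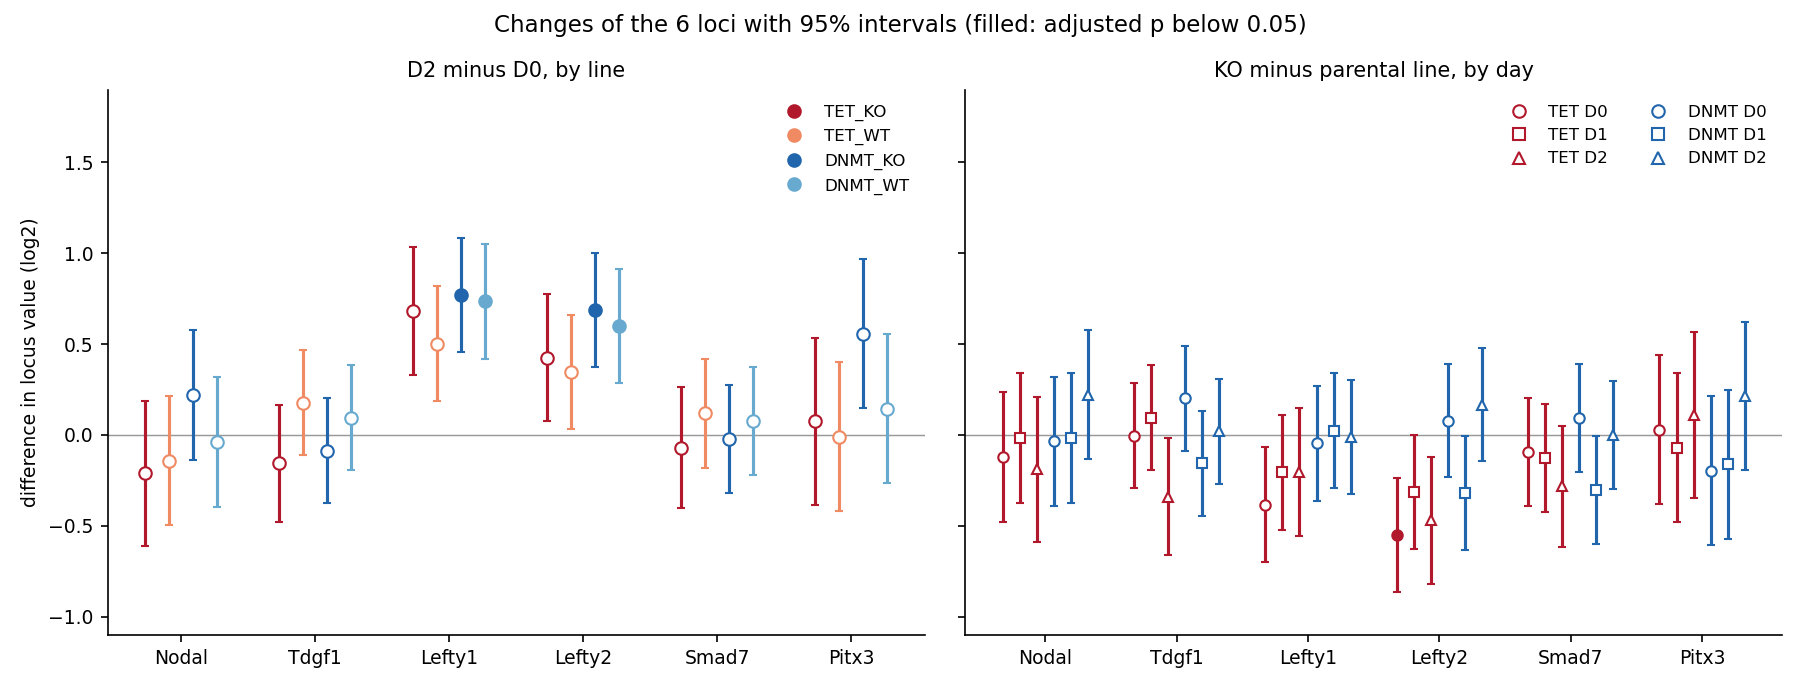
Differences in locus value (log2, vertical axis) of the 6 genes with 95% intervals, D2 minus D0 in each line on the left and knockout minus parental line at each day on the right; filled symbols passed an adjusted p of 0.05. Lefty1 and Lefty2 are filled in the DNMT lines on the left, and on the right the filled symbol is Lefty2 in TET_KO against TET_WT at D0, at -0.55.

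The D2 differences were spread over the Lefty windows and were not the property of 1 tile. At Lefty1, 17 of 19 tested tiles had a D2 minus D0 difference above 0 in TET_KO, 16 in TET_WT, 18 in DNMT_KO and 19 in DNMT_WT. At Lefty2 the numbers were 14 of 22 in TET_KO, 20 in TET_WT, 20 in DNMT_KO and 20 in DNMT_WT. Over all tested tiles the share above 0 was 52.5% in TET_KO, 51.5% in TET_WT, 53% in DNMT_KO and 52.1% in DNMT_WT. Of the 39 distinct tiles, 24 were above 0 in all 4 lines and none was below 0 in all 4, while over all tested tiles 13.3% were above in all 4 and 12.1% below. The tiles share libraries and are not independent measurements.

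The differences were larger in the Lefty windows than around them. The median difference of the Lefty1 window was 0.50 in TET_KO, 0.55 in TET_WT, 0.78 in DNMT_KO and 0.69 in DNMT_WT, against 0.11, 0.03, 0.29 and 0.26 over the 307 tested tiles within 1 Mb on either side. For Lefty2 the window medians were 0.30 in TET_KO, 0.31 in TET_WT, 0.73 in DNMT_KO and 0.48 in DNMT_WT, against 0.11, 0.03, 0.28 and 0.25 in the surrounding 301 tiles. These medians are descriptions, with no test of window against surroundings. The surroundings hold Mixl1 (chr1:180693043-180697034), another target of Nodal signalling, whose locus differed by 0.30 in TET_KO, 0.04 in TET_WT, 0.24 in DNMT_KO and 0.19 in DNMT_WT at D2 against D0, with limma adjusted p from 0.606 to 0.988.

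Single tiles passed the test in a few places. Over the 6 windows, 3 of 107 tiles were called at D2 against D0 in TET_KO (0.945% of all tested tiles), 0 in TET_WT (0.711%), 2 in DNMT_KO (2.06%) and 3 in DNMT_WT (2.02%). These counts are small, and those in the DNMT lines are near the background. In TET_WT, 10 tiles were higher and 2 lower at an unadjusted p under 0.05 by limma, and limma voom called 9. Of the 8 called tiles, 7 were higher at D2 and lay in the Lefty windows, and 1 was lower and lay in Smad7.

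In DNMT_WT the tile at the lower-coordinate end of Lefty2 (chr1:180892001-180894000) read 1.11, 1.37 and 1.68 normalised log2 RPKM at D2, against 0.14, 0.83 and -1.08 at D0, a difference of 1.43 ± 0.39 (limma adjusted p = 0.0294). It held 19, 18 and 23 reads at D2, against 11, 14 and 6 at D0. The D2 libraries were all higher, on few reads. In the same line the tile just past Lefty1 (chr1:180940001-180942000), which holds no annotated gene, read 1.25, 0.71 and 1.30 at D2, against -1.33, 0.14 and -0.39 at D0 (1.62 ± 0.40, adjusted p = 0.0116). A tile within the predicted gene Gm39715 (chr1:180920001-180922000) read 0.95, 0.42 and 0.62 at D2, against -0.74, -2.79 and -0.11 at D0 (1.88 ± 0.46, adjusted p = 0.0124). The lowest D0 value of that tile was 1 read, so the size of its change rests on few reads.

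In DNMT_KO the called tiles were other ones. The tile at the higher-coordinate end of Lefty1 (chr1:180938001-180940000) read 0.79, 1.63 and 0.13 at D2, against -0.99, 0.14 and -3.39 at D0 (2.27 ± 0.58, limma adjusted p = 0.017), where 1 D2 library overlapped with D0 and the lowest D0 library had 0 reads. A tile on the far side of Lefty2 with no annotated gene (chr1:180872001-180874000) read 1.54, 1.48 and 1.58 at D2, against -0.55, 0.29 and -0.04 at D0 (1.63 ± 0.39, adjusted p = 0.00974). Its libraries were separate, with 30, 22 and 24 reads at D2, against 7, 11 and 9 at D0. In TET_KO another tile of Gm39715, next to Lefty1 (chr1:180932001-180934000), read 0.03 and 0.79 at D2, against -2.70, -0.37 and -0.58 at D0 (1.63 ± 0.44, adjusted p = 0.0491). Its libraries were separate between the days as well. In TET_WT this tile differed by 0.90 with separate libraries, not called. Across TET_KO and TET_WT, chr1:180938001-180940000 differed by 2.07 and 1.14 and chr1:180940001-180942000 by 0.48 and 1.18, with separate libraries and no call. The other tiles, in the same order of lines, gave 0.83 and 0.33 (chr1:180892001-180894000), 0.46 and -0.45 (chr1:180920001-180922000), and -0.18 and 0.15 (chr1:180872001-180874000), none called. Each of the calls given here was lost on leaving out at least 1 library: 5 of 6 such fits kept chr1:180872001-180874000, 4 of 6 kept chr1:180920001-180922000, and from 2 to 3 fits kept each of the others.

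The most accessible tile of the Lefty1 window (chr1:180924001-180926000, percentile 95.03 of tested tiles) lies in Gm39715. Its D2 minus D0 difference was 1.07 in TET_KO, 0.74 in TET_WT, 0.18 in DNMT_KO and 0.69 in DNMT_WT, none called (limma adjusted p from 0.157 to 0.888). The tile at the higher-coordinate end of Lefty2 (chr1:180898001-180900000) was low, at percentile 18.18, and differed by -0.09 in TET_KO, 0.05 in TET_WT, 0.99 in DNMT_KO and 1.27 in DNMT_WT, none called (adjusted p from 0.266 to 1).

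The most accessible tile of the Lefty2 window (chr1:180888001-180890000, percentile 99.87 of tested tiles) lies outside the annotated gene. Its D2 minus D0 difference was 0.46 in TET_KO, 0.05 in TET_WT, 0.31 in DNMT_KO and 0.44 in DNMT_WT, with no call in any line. At the lower-coordinate end of Lefty1 the tile chr1:180934001-180936000 read 1.06 and 1.41 at D2, against -0.26, 0.31 and 0.13 at D0 in TET_KO, and 1.87, 1.64 and 1.88 at D2, against 0.86, 0.46 and 1.06 at D0 in TET_WT. In DNMT_KO it read 1.81, 2.16 and 1.81 at D2, against 0.85, 0.88 and 1.02 at D0, and in DNMT_WT it read 1.91, 0.84 and 1.46 at D2, against 0.60, 0.30 and 0.70 at D0. In each of the 4 lines every D2 library was above every D0 library at this tile. The differences were 1.17 ± 0.35 in TET_KO, 1.00 ± 0.31 in TET_WT, 1.01 ± 0.31 in DNMT_KO and 0.87 ± 0.31 in DNMT_WT, and none passed over all tested tiles (limma adjusted p from 0.0699 to 0.148).

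**Figure D3:**
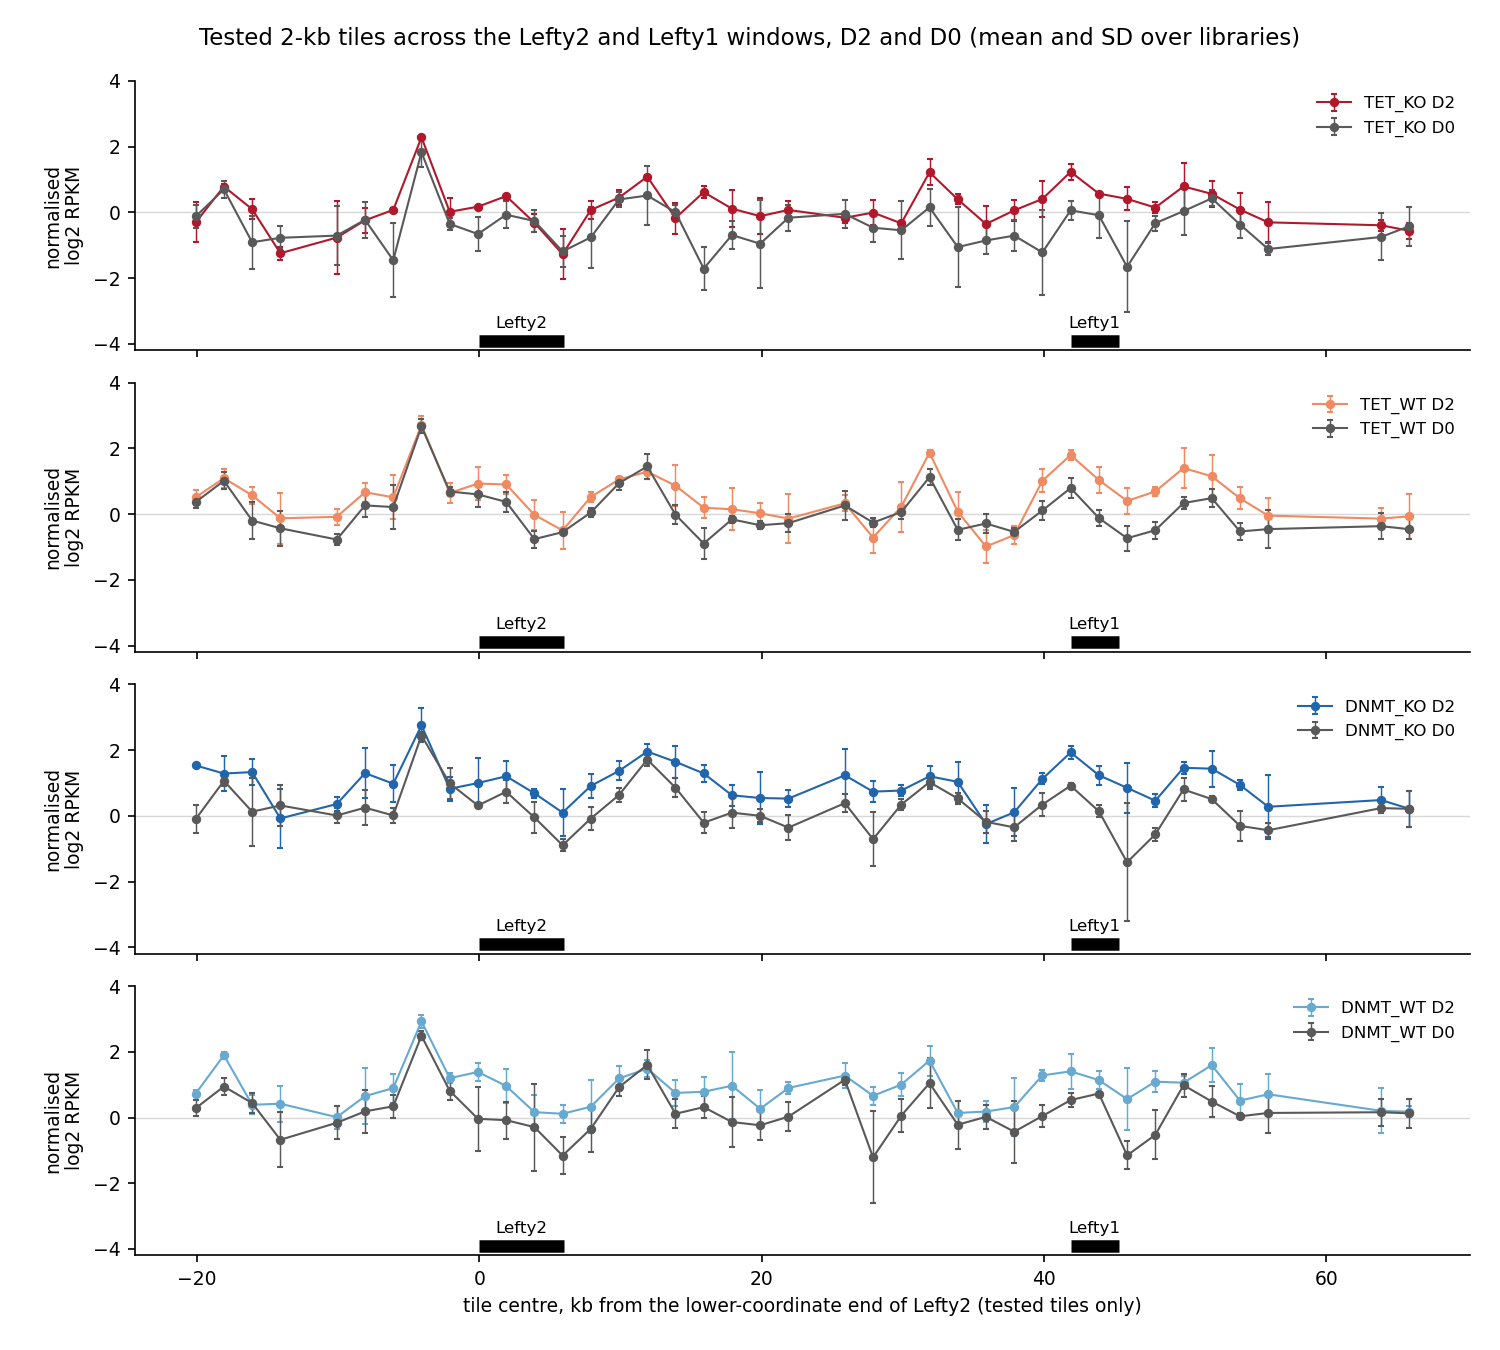
Normalised log2 RPKM (vertical axis, mean and SD over libraries) of the tested tiles across the Lefty2 and Lefty1 windows, at D2 (colour) and D0 (grey), 1 panel per line; the horizontal axis is the distance of the tile centre from the lower-coordinate end of Lefty2 in kb, and black bars are the genes. In each line the D2 points lie above the D0 points over most of the Lefty1 window.

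At D1 no difference from D0 was called at the Lefty loci. Lefty1 at D1 was -0.29, -0.29 and -0.59 in TET_KO, -0.20, -0.05 and -0.30 in TET_WT, 0.39, -0.03 and 0.46 in DNMT_KO, and 0.37, 0.18 and 0.20 in DNMT_WT. Against D0 these are differences of 0.09, -0.09, 0.22 and 0.15, and at Lefty2 they were 0.10, -0.14, -0.16 and 0.24 in the same order of lines. The signs were mixed. Among all 6 loci limma and limma voom called 0 at D1 in each line, and at an unadjusted p under 0.05 limma had 1 lower in DNMT_KO (Smad7) and 1 higher in DNMT_WT (Tdgf1). Of all loci 0.233% were called at D1 in TET_KO, 0.283% in TET_WT, 0.699% in DNMT_KO and 1.06% in DNMT_WT.

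Lefty2 was called lower in TET_KO than in TET_WT at D0 and not at D1 or D2. At D0 its locus value was -0.37, -0.51 and -0.16 in TET_KO, against 0.32, 0.17 and 0.12 in TET_WT, a difference of -0.55 ± 0.15 (95% interval -0.86 to -0.24, 0.683-fold, limma adjusted p = 0.0306). Every TET_KO library was below every TET_WT library. At D1 it was 0.04, -0.28 and -0.50 in TET_KO, against -0.01, 0.00 and 0.20 in TET_WT (-0.31 ± 0.15, adjusted p = 0.36), and at D2 it was 0.05 and 0.11 in TET_KO, against 0.61, 0.28 and 0.76 in TET_WT (-0.47 ± 0.17, adjusted p = 0.174). The libraries were separate at D2 and overlapped at D1. Of all loci, 4.94% were called in this comparison at D0, 3.02% at D1 and 1.83% at D2, so a call at D0 was common. The D0 call was lost on leaving out replicate 1 or 2 of either line, with adjusted p up to 0.157.

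Lefty1 had the same sign, with -0.38 ± 0.15 at D0 (limma adjusted p = 0.164, all TET_KO libraries below), -0.21 at D1 and -0.20 at D2 in TET_KO against TET_WT, none called. The median tile of the Lefty2 window differed by -0.54 at D0 between TET_KO and TET_WT, against -0.07 over the tiles within 1 Mb and 0.105 over chromosome 1. The highest tile of the window, chr1:180888001-180890000, read 2.05, 2.12 and 1.32 in TET_KO at D0, against 2.74, 2.84 and 2.43 in TET_WT, a difference of -0.84 ± 0.23 with separate libraries that did not pass over all tiles (limma adjusted p = 0.122). No tile of the 6 windows was called between TET_KO and TET_WT at D0, D1 or D2, where 0.142%, 0.0767% and 0.0809% of all tested tiles were. At an unadjusted p under 0.05 by limma, 0 were higher and 8 lower at D0, 2 higher and 8 lower at D1 and 0 higher and 4 lower at D2, and limma voom called 3 lower at D0 and none at D1 or D2.

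The cells of these groups also differed in other marks of state. The mean of the naive loci, set above that of all loci, was 0.83 in TET_KO and 1.20 in TET_WT at D0, with non-overlapping ranges of 0.72 to 0.89 and 1.10 to 1.30. That of the fibroblast list was 0.15 in TET_KO and -0.04 in TET_WT at D0, and 0.51 in TET_KO and 0.03 in TET_WT at D2. There the Dcn locus was the 1 of 7 called higher, against 1.83% of all loci called in either direction. At D2 the mean of the naive loci was 0.18 in TET_KO and 0.59 in TET_WT. That of the formative loci was 0.40 in TET_KO and 0.52 in TET_WT at D0, with ranges of 0.34 to 0.46 and 0.49 to 0.57, and 0.80 in TET_KO and 1.15 in TET_WT at D2, with ranges of 0.75 to 0.84 and 1.02 to 1.22. Their part in the Lefty2 difference was not tested.

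No difference between DNMT_KO and DNMT_WT was called at the Lefty loci. The differences at Lefty1 were -0.05 at D0, 0.02 at D1 and -0.01 at D2, and at Lefty2 they were 0.08 at D0, -0.32 at D1 and 0.17 at D2, with a standard error of 0.15 each. The D2 difference had 95% intervals of -0.32 to 0.30 at Lefty1 and -0.15 to 0.48 at Lefty2. At D1 the Lefty2 value was 0.38, 0.05 and 0.21 in DNMT_KO, against 0.52, 0.65 and 0.43 in DNMT_WT, all lower in DNMT_KO, with an unadjusted p of 0.0465 and an adjusted p of 0.487 by limma. Of the 6 loci, limma and limma voom called 0 at each day, and limma had 0, 2 and 0 at an unadjusted p under 0.05 at D0, D1 and D2, both lower at D1 (Lefty2 and Smad7). The background was as low, with 0% of loci called at each day and 0%, 0.0126% and 0.0306% of tiles. Among the 107 tiles limma and limma voom called 0 at each day, with 3 higher and 1 lower at an unadjusted p under 0.05 at D0, 2 higher and 14 lower at D1, and 5 higher and 1 lower at D2.

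Ordered by level, the Lefty1 locus was highest in DNMT_WT at D2 (0.84 ± 0.14, SD, n = 3) and DNMT_KO at D2 (0.83 ± 0.07, n = 3), then TET_WT at D2 (0.41 ± 0.29, n = 3), and lowest in TET_KO at D0 (-0.48 ± 0.32, n = 3). Lefty2 was highest in DNMT_KO at D2 (1.06 ± 0.23, n = 3) and DNMT_WT at D2 (0.90 ± 0.16, n = 3), then TET_WT at D2 (0.55 ± 0.24, n = 3), and lowest in TET_KO at D0 (-0.35 ± 0.17, n = 3). The step between the pair of DNMT groups and TET_WT at D2 exceeded both SDs at each gene, and the order within the pair did not. Family cannot be told apart from processing and from the level of the whole chromosome here, since the median tested tile of chromosome 1 was 0.609 higher in DNMT_WT than in TET_WT at D0. At D0 the DNMT_WT minus TET_WT difference itself was 0.20 at Lefty1 and 0.09 at Lefty2. Limma and limma voom called 0 of the 6 loci in that comparison, against 7.24% of all loci by limma, and 1 of the 6, Tdgf1, had an unadjusted p under 0.05 (-0.32, adjusted p = 0.188).

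Smad7, the intracellular inhibitor (chr18:75367365-75395935), had its highest tile at its lower-coordinate end (chr18:75366001-75368000, percentile 99.35), which it shares with the predicted gene Gm20544. Its locus value was -0.06 and -0.04 at D2, against 0.07, 0.08 and -0.08 at D0 in TET_KO, and 0.36, 0.02 and 0.32 at D2, against 0.25, 0.18 and -0.07 at D0 in TET_WT. In DNMT_KO it was 0.08, -0.11 and 0.08 at D2, against 0.02, 0.09 and 0.01 at D0, and in DNMT_WT it was -0.03, 0.04 and 0.05 at D2, against -0.21, -0.03 and 0.08 at D0. The days overlapped in all 4 lines, and the differences were -0.07 ± 0.16, 0.12 ± 0.15, -0.02 ± 0.15 and 0.07 ± 0.15 in TET_KO, TET_WT, DNMT_KO and DNMT_WT (limma adjusted p from 0.872 to 0.964). The tile at the lower-coordinate end differed by -0.20, -0.31, -0.26 and -0.21 in the same lines, and the one at the higher-coordinate end (chr18:75394001-75396000) by 0.11, 0.36, 0.02 and 0.02, none called. At D2 both TET_KO libraries lay below all TET_WT libraries at the locus (-0.28 ± 0.16, adjusted p = 0.478).

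Some single tiles within the Smad7 window were called lower. In TET_KO the tile chr18:75376001-75378000, within the gene, read -3.55 and -0.39 at D2, against 0.31, 0.31 and -0.17 at D0 (-2.12 ± 0.58, limma adjusted p = 0.0493). It held 0 and 15 reads at D2, against 19, 15 and 8 at D0, so replicate 1 of D2 carried the change, and only 1 of 5 fits that each left out a library kept the call. At D1 in DNMT_KO, 2 tiles of Smad7 were the called ones among the 107 (0.964% of all tested tiles). The tile chr18:75380001-75382000, within the gene, read 0.03, -2.79 and -1.58 at D1, against 0.07, 0.96 and 1.09 at D0 (-2.16 ± 0.43, adjusted p = 0.00261). The tile chr18:75348001-75350000, before the gene, read -1.44, -2.79 and -2.84 at D1, against 0.31, -0.17 and -0.04 at D0 (-2.39 ± 0.51, adjusted p = 0.00695). Both were lower in every D1 library, on few reads. The tile before the gene held 3, 0 and 0 reads at D1. The tile within the gene held 11 reads over the D1 libraries together, against 50 over those of D0. Its replicate 1 of D1 (0.03) was close to the lowest D0 value (0.07). A lower D1 value at this tile was not particular to DNMT_KO. It differed by -1.37 ± 0.43 in DNMT_WT (limma adjusted p = 0.113) and -0.70 in TET_WT, with every D1 library below D0. In TET_KO it differed by -0.09, with overlap. The tile before the gene differed by -0.02 in DNMT_WT, 0.89 in TET_WT and -0.41 in TET_KO. In the other 3 lines 0 of 107 tiles were called at D1 (0.373% in TET_KO, 0.196% in TET_WT and 0.877% in DNMT_WT), by limma as by limma voom, and voom called none in DNMT_KO either. At an unadjusted p under 0.05, 4 tiles were higher and 4 lower in TET_KO, 0 and 8 in TET_WT and 6 and 2 in DNMT_WT.

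Pitx3 (chr19:46135281-46148325, minus strand) had the highest mean locus value of the 6, but over only 7 tested tiles of 28. The other 21 tiles averaged between -1.81 and -0.65 log2 RPKM as deposited. Its most accessible tile was chr19:46152001-46154000, which holds the start of the neighbouring gene Gbf1, and its own start lay in chr19:46148001-46150000 at percentile 95.5. In DNMT_KO the locus value was 0.74, 0.76 and 0.59 at D2, against -0.10, -0.05 and 0.56 at D0. In DNMT_WT it was 0.30, 0.41 and 0.73 at D2, against 0.21, 0.42 and 0.37 at D0. The DNMT_KO libraries were separate, with 1 D0 library close to D2, and the DNMT_WT libraries overlapped. The difference was 0.56 ± 0.20 in DNMT_KO (95% interval 0.15 to 0.97, limma adjusted p = 0.142) and 0.14 ± 0.20 in DNMT_WT (adjusted p = 0.806), and the test between the lines gave 0.41 ± 0.28 (adjusted p = 0.944). All 7 tested tiles were above 0 in DNMT_KO, from 0.19 to 1.10, and 3 of 7 in DNMT_WT.

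In the TET lines the Pitx3 differences were close to 0. The locus value was 0.56 and 0.78 at D2, against 0.64, 0.60 and 0.54 at D0 in TET_KO (0.07 ± 0.22), and 0.70, 0.62 and 0.36 at D2, against 0.66, 0.79 and 0.26 at D0 in TET_WT (-0.01 ± 0.20). The groups overlapped in both lines, with limma adjusted p of 0.966 and 0.998. For Nodal, Tdgf1, Smad7 and Pitx3, no neighbouring pair of groups in the order of levels differed by more than both SDs. The highest and lowest group means were 0.32 in TET_WT at D0 and -0.02 in TET_KO at D1 for Nodal, 0.45 in TET_KO at D1 and -0.05 in DNMT_WT at D0 for Tdgf1, 0.24 in TET_WT at D2 and -0.29 in DNMT_KO at D1 for Smad7, and 0.69 in DNMT_KO at D2 and 0.14 in DNMT_KO at D0 for Pitx3.

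Across the 23 libraries of D0 and D2, the locus values of Lefty1 and Lefty2 had a Pearson r of 0.896, with tiles and a chromosome in common. Nodal had an r of -0.08 with Lefty1, 0.51 with Smad7 and 0.46 with Pitx3. These are descriptions over libraries that fall into groups of line and day. Loci within 100 kb of a member were left out of the search for those most like it. In the same 23 libraries, the protein-coding loci most like Lefty1 were Arl4c (r = 0.887) and Adipor1 (r = 0.896). Those most like Lefty2 were Arl4c (r = 0.899) and Tex44 (r = 0.896), and all lie on chromosome 1. The median tested tile of that chromosome was 0.609 higher in DNMT_WT than in TET_WT at D0, and its part in these r values was not tested. For the other members they were Rpa2 (0.837) and Mrpl45 (0.833) for Nodal, Spin1 (0.784) and LOC115488671 (0.776) for Tdgf1, Agtrap (0.844) and Wnk1 (0.806) for Smad7, and Eif5 (0.895) and Rab13 (0.829) for Pitx3. All were chosen as the highest of the protein-coding loci beyond 100 kb, so Lefty1 and Lefty2 could not be named for each other. The 99th percentile of r over loci ran from 0.585 to 0.729 by member.

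The other genes of the Nodal and Activin pathway, of which 32 are reported, were examined in the same way. Of the 32, limma called 0 at D2 against D0 in TET_KO and 0 in TET_WT, 1 higher in DNMT_KO and 1 lower in DNMT_WT, where 0.347%, 1.07%, 2.06% and 2.05% of all loci were called in the same order of lines. These counts are near the background. At an unadjusted p under 0.05, 1 was higher and 2 lower in TET_KO and 1 higher and 3 lower in TET_WT. The median of the 32 was 0.01, -0.01, 0.11 and -0.05, against 0.03, 0.03, 0.05 and 0.06 over all loci, in the same order of lines. None of 5 receptor and co-receptor loci (Acvr1b, Acvr1c, Acvr2a, Acvr2b and Cfc1) and none of 8 inhibitor loci (Cer1, Dand5, Fst, Smad6, Smurf1, Smurf2, Bambi and Pmepa1) was called in any line at D2 by limma, with 0 receptor loci in TET_KO, 1 in TET_WT, 1 in DNMT_KO and 0 in DNMT_WT (all lower) and 0 inhibitor loci at an unadjusted p under 0.05.

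Among 10 transducers and partners, Skil, which encodes the SMAD co-repressor SnoN, was the called one: it averaged 0.34 ± 0.09 at D2 and -0.40 ± 0.04 at D0 in DNMT_KO (SD, n = 3 each), a difference of 0.73 ± 0.16 (SE, limma adjusted p = 0.0107), with 0.31 in TET_KO, 0.41 in TET_WT and 0.40 in DNMT_WT that did not pass. Pcsk6, a convertase that cleaves the Nodal precursor, fell in DNMT_WT, where it averaged -0.45 ± 0.07 at D2 and 0.13 ± 0.20 at D0 (-0.58 ± 0.13, adjusted p = 0.0182), with -0.47 in TET_KO, -0.50 in TET_WT and -0.18 in DNMT_KO. The test of the difference between DNMT_KO and DNMT_WT in the D2 change gave 0.33 ± 0.22 for Skil (adjusted p = 0.94) and 0.40 ± 0.19 for Pcsk6 (adjusted p = 0.891).

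**Figure D4:**
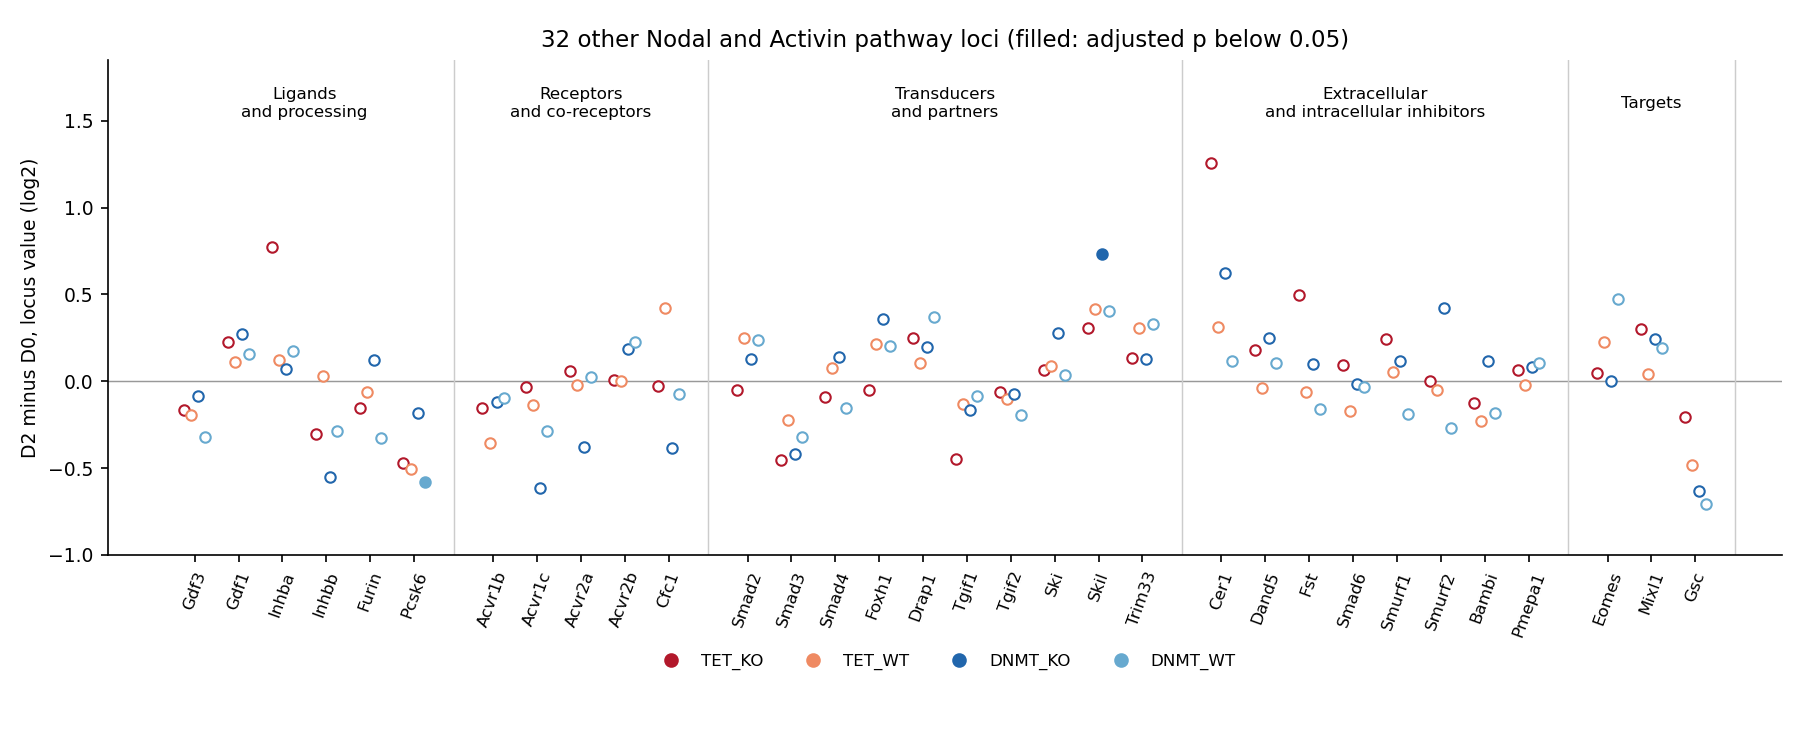
D2 minus D0 difference in locus value (log2, vertical axis) of the 32 other pathway genes, grouped by role, with 1 point per line; filled points passed an adjusted p of 0.05. Filled points are at Skil in DNMT_KO and Pcsk6 in DNMT_WT.

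Between TET_KO and TET_WT, 2 of the 32 were called at D0, 1 at D1 and 1 at D2, all lower in TET_KO, where 4.94%, 3.02% and 1.83% of all loci were called at D0, D1 and D2. These counts are near the background. Dand5, a secreted Nodal antagonist, averaged -0.14 ± 0.12 in TET_KO and 0.78 ± 0.28 in TET_WT at D0 (SD, n = 3 each), a difference of -0.92 ± 0.15 (SE, limma adjusted p = 0.000416), and it differed by -0.70 ± 0.17 at D2 (adjusted p = 0.024). Gdf1, a ligand that forms heterodimers with Nodal, differed by -0.71 ± 0.18 at D0 (adjusted p = 0.0179). Both lie on chromosome 8, where the median tested tile was itself lower in TET_KO by -0.537 at D0, -0.517 at D1 and -0.489 at D2. Inhbb, which encodes the Activin beta-B subunit, was lower at D1 (-0.69 ± 0.17, adjusted p = 0.0251). Between DNMT_KO and DNMT_WT limma called 0 of the 32 at each day, with from 0 to 2 loci per role at an unadjusted p under 0.05.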

How the data were processed

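ATAC-seq was done on mouse embryonic stem cells and epiblast-like cells in 35 libraries. Per the submitters' processing notes the tools were Trim Galore 0.6.5, cutadapt 2.3 and Bowtie2 2.4.1, and the build was GRCm38. The sources used here do not say how read ends, duplicates and masked regions were handled. Each of 1362779 tiles of 2 kb has a log2 RPKM value per library as the authors deposited it, which scales reads by tile length and library total, per the file headers. All values were whole reads (100%, tolerance 0.01 read) and an empty tile stood at 0.9 read, so the reads could be recovered, and a difference that rests on empty tiles depends on that floor.

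Tested were 166931 tiles of autosomes and X: the highest 10% by mean, or tiles with a gene start (either end where the annotation gives no strand), without those empty in all D0 and D2 libraries. Quantile normalised values were fitted with limma 3.58.1 in R 4.3.3, with 1 mean for each line and day (23 residual degrees of freedom), 2-sided, with Benjamini-Hochberg adjustment over all tiles or all 48075 loci of a contrast. Locus values average the tested tiles from 20 kb before to 20 kb after a gene. Since the unit is log2 RPKM, limma voom on the recovered reads was an alternative only. Gene positions, promoters and symbols came from RefSeq tables, which give a strand for 26794 of 49554 genes.

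The members and the lists of pathway and marker genes were chosen with earlier results of these data known. Named are the 6 genes, the tiles with their starts, highest means or calls, and pathway genes called at D2 or between knockout and parental line. The 2 loci beyond 100 kb most like each member are named as well. Results for 1 pathway gene and for 1 gene within the Lefty windows are not reported here. The closing section gives the alternatives tried.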

Additional observations from a re-analysis of the deposited data

Results flagged for a closer look

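In 5 places every library of one comparison moved one way and every library of the other moved the opposite way. They were picked by a search over tiles and pairs of comparisons, and the share of all tested tiles with such a pattern was not counted. With so few libraries per group, how often it would arise by chance is not known. The difference between the comparisons was not tested, and each place is 1 tile. The tile at Lefty1 held 10 to 73 reads per library, and each of the others had a library with 2 reads or fewer. At the tile chr1:180934001-180936000, which holds the lower-coordinate end of Lefty1, the difference between TET_KO and TET_WT at D0 was below that between DNMT_KO and DNMT_WT by -1.12 on the log2 scale. At chr1:180920001-180922000, in Gm39715, the same difference of differences was -0.94 at D1, and at chr1:180872001-180874000, beyond Lefty2, it was -1.62 at D2. At chr18:75380001-75382000, in Smad7, it was 1.13 at D2. At chr18:75348001-75350000, before Smad7, the D1 minus D0 difference in TET_WT exceeded that in DNMT_KO by 3.28, and there day and processing cannot be told apart.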

How the results depend on the processing

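No called result changed sign under any alternative. As deposited, the median tile was 0.434 to 0.618 higher at D1 than at D0, -0.257 at D1 and -0.115 at D2 in TET_KO against TET_WT and -0.22 in DNMT_WT against TET_WT at D0, and the reported changes are relative to these shifts. Counts below are called tiles of the 107, against 3 in TET_KO, 0 in TET_WT, 2 in DNMT_KO and 3 in DNMT_WT at D2 against D0, 2 in DNMT_KO at D1 and 0 elsewhere. With values as deposited they were 0 in TET_KO, 0 in DNMT_KO and 1 in DNMT_WT at D2, and 1, 8 and 5 in the same lines at D1, and Lefty1 was not called in DNMT_KO (0.57) or DNMT_WT (0.65), nor Lefty2 in DNMT_KO (0.46), in DNMT_WT (0.51) or in TET_KO against TET_WT at D0 (-0.59). With each library centred on its median, TET_KO had 1 at D2 and DNMT_KO against DNMT_WT 1 at D1, and Lefty2 lost its calls in DNMT_KO (0.57), DNMT_WT (0.52) and TET_KO against TET_WT (-0.52). Keeping tiles empty at D0 and D2 left 1 in TET_KO at D2, and the highest 5% of tiles left 1 in DNMT_KO at D1. With no filter on low tiles, D2 counts were 1 in TET_KO, 1 in DNMT_KO and 0 in DNMT_WT, and Lefty2 was not called in DNMT_KO (0.64) or DNMT_WT (0.58). A pseudocount of 1 RPM gave 1 in TET_KO, 5 in DNMT_KO and 5 in DNMT_WT. Limma voom gave 6 in TET_KO and 9 in TET_WT at D2, 0 in DNMT_KO at D1 and 3 in TET_KO against TET_WT at D0, and did not call Lefty2 in DNMT_KO (0.39). Fitting only the groups compared gave 4 in TET_WT at D2 and 0 in DNMT_KO at D1, with no call for Lefty1 in DNMT_WT (0.73) or for Lefty2 in DNMT_KO (0.69), DNMT_WT (0.60) and TET_KO against TET_WT (-0.55). The summed reads of all tiles of a window gave 0.36 for Lefty2 in DNMT_KO, not called.

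After the data were seen, 3 alternatives were added. Centring chromosomes on untested tiles ended the Lefty2 call in TET_KO against TET_WT (-0.59). Without the D1 libraries, 5 were called in TET_KO and 4 in DNMT_KO at D2. Thinning D0 and D2 libraries to 1 depth gave 1 in TET_WT, 0 in DNMT_KO and 1 in DNMT_WT at D2 and 2 in TET_KO against TET_WT at D0, with Lefty2 not called in DNMT_KO (0.58) or DNMT_WT (0.62). The causes were not tested.

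Leaving out 1 library at a time gave 0 to 2 in TET_KO, 1 to 3 in DNMT_KO and 1 to 2 in DNMT_WT at D2, 0 to 1 in TET_KO, 2 to 4 in DNMT_KO and 0 to 1 in DNMT_WT at D1, and 0 to 1 in TET_KO against TET_WT at D0 and at D2. Lefty1 ranged from 0.72 to 0.81 in DNMT_KO, always called, and from 0.67 to 0.81 in DNMT_WT. Lefty2 ranged from 0.58 to 0.81 in DNMT_KO, from 0.50 to 0.70 in DNMT_WT and from -0.64 to -0.47 in TET_KO against TET_WT at D0. Over the other alternatives Lefty1 stayed called in 14 of 15 in DNMT_KO and 13 of 15 in DNMT_WT, and Lefty2 in 8 of 15, 10 of 15 and, in TET_KO against TET_WT, 11 of 15. Of 1383 values of uncalled loci, 1270 moved by less than 1 SE, 96 by more and 17 became called, among them Lefty1 at D2 in TET_WT (with voom, summed reads, a pseudocount or a 10-kb window) and TET_KO (with voom or a 10-kb window), and Pitx3 at D2 in DNMT_KO (with a 50-kb window, 0.70, adjusted p = 0.0106). Of the 1383 values, 145 changed sign with no call in either fit. The same held for 78 of 636 values of uncalled loci on leaving out 1 library.

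Same-numbered replicates did not deviate together (r from -0.109 to 0.134 between groups). At few reads per tile a low r cannot exclude a pairing, and the labels do not say whether the numbers pair libraries. A fit with the replicate number as a block changed no count and no call: Lefty1 was 0.77 in DNMT_KO (adjusted p = 0.00839) and 0.73 in DNMT_WT (0.011), and Lefty2 was 0.69 (0.0171), 0.60 (0.0371) and, in TET_KO against TET_WT, -0.55 (0.0353). At 4 to 35 reads in the median tested tile, depth limits what single tiles can show.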

Other observations

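Beyond the comparisons at D2, the locus of Gsc, a homeobox target of Nodal in the primitive streak, was called lower at D1 than at D0 in both DNMT lines, the only call among the 32 other pathway loci in these 4 comparisons of D1 with D0, against 0.699% of all loci called in DNMT_KO and 1.06% in DNMT_WT. Its locus value averaged -0.62 ± 0.54 at D1 and 0.60 ± 0.31 at D0 in DNMT_KO (SD, n = 3 each), a difference of -1.22 ± 0.22 (SE, limma adjusted p = 0.0065), and -0.46 ± 0.12 at D1 and 0.72 ± 0.35 at D0 in DNMT_WT (-1.18 ± 0.22, adjusted p = 0.00613). In the TET lines it differed by -0.55 in TET_KO and -0.39 in TET_WT, which did not pass, although each D1 library was below each D0 library. Day and processing cannot be told apart at D1. At D2 the Gsc difference was -0.20 in TET_KO, -0.48 in TET_WT, -0.63 in DNMT_KO and -0.71 in DNMT_WT, with adjusted p from 0.0943 to 0.874.

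Between the parental lines at D0, 3 of the 32 other pathway loci were called, against 7.24% of all loci. Cfc1, which encodes the co-receptor Cryptic, averaged -0.04 ± 0.23 in DNMT_WT and -1.03 ± 0.23 in TET_WT (0.99 ± 0.24, limma adjusted p = 0.00847). Inhbb averaged 0.52 ± 0.22 in DNMT_WT and -0.30 ± 0.07 in TET_WT (0.82 ± 0.17, adjusted p = 0.00305). Both lie on chromosome 1, whose median tested tile was 0.609 higher in DNMT_WT. Eomes, a T-box target of Nodal, averaged -0.49 ± 0.26 in DNMT_WT and 0.12 ± 0.11 in TET_WT (-0.61 ± 0.15, adjusted p = 0.0104). Family and processing cannot be told apart in this comparison. Gsc, Cfc1, Inhbb and Eomes were chosen for these comparisons after their values were seen.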
